A study of Mus musculus with 26 samples.

Results

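The loss of *Pla2g4d* was compared in keratinocytes that had been exposed to the psoriasis-type cytokines IL17A and TNFα. The comparison holds 13 of the 26 libraries of the series, taken as all libraries treated with both cytokines: 5 of WT mice (WT replicates 1 to 5) and 8 of KO mice (KO replicates 1 to 8). The keratinocytes, which build the epidermis, were primary cells from neonatal C57BL/6NJ mice aged 2 days. They were grown for 4 days at a low calcium concentration of 0.06 mM CaCl2, which holds most of the cells in a basal-like state, and then received IL17A together with TNFα, each at 20 ng/ml, for 24 h. The other 13 libraries are the untreated cells of the same numbers of WT and KO mice and serve here only to ask whether a genotype difference also stood without cytokines. KO cells carry *Pla2g4d* em1(IMPC)J, a CRISPR-Cas9 deletion of exon 3, in every cell, and come from heterozygotes crossed back to C57BL/6NJ before homozygous breeding. WT mice were of the same C57BL/6NJ background, but the paper does not describe how they were bred. Pups of homozygous KO parents have no WT littermates, so genotype cannot be told apart from litter. Cells of each animal were pooled from 2 wells, and neither sex nor litter was recorded. By *Xist* and Y-linked transcripts, 2 of the 5 WT mice and 4 of the 8 KO mice looked female.

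*Pla2g4d* encodes cytosolic phospholipase A2 delta, a lipid hydrolase of the cPLA2 family that is found in stratified epithelia and is known for its high level in psoriatic skin. Keratinocytes divide in the basal layer of the epidermis and leave it as they differentiate. Suprabasal cells switch to the keratins KRT1 and KRT10, then cross-link loricrin, filaggrin-type proteins and small proline-rich proteins into the cornified envelope, and secrete barrier lipids. IL17A and TNFα drive antimicrobial proteins and chemokines through NF-κB and restrain the KRT1 and KRT10 program.

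The deleted exon is shown because it defines the genotype. Exon 3 of *Pla2g4d* lies on the minus strand of GRCm39 at chr2:120114273-120114409, is 137 bp long and coding throughout. Printed on the coding strand, where no base is singled out by capitals, it reads:

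*Pla2g4d* exon 3: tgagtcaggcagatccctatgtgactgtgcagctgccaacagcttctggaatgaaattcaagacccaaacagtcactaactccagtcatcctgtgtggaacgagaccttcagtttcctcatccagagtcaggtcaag

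Reads of the remaining exons also count toward the deposited value of the gene, which is therefore no check of the deletion. All levels below are CPM, the counts scaled to library size by TMM. For WT the values are given in the order of replicates 1 to 5, and for KO as the lowest, the median and the highest of 8 libraries. *Pla2g4d* itself was at 28.6, 65.1, 47.0, 57.2 and 62.9 CPM in WT and at 29.2, 36.2 and 59.2 CPM in KO libraries with cytokines. No KO library lay below the WT range (log2 fold change -0.45, standard error 0.23, adjusted p = 0.345). None of the 5 cPLA2 genes with enough counts passed the test in all 13 libraries. When WT replicate 1 was left out, 2 were lower, *Pla2g4d* at a log2 fold change of -0.60 (adjusted p = 0.0357) and *Pla2g4e* at -0.46 (adjusted p = 0.066). *Pla2g4e*, an N-acyltransferase of the family, was at 66.7, 129, 102, 123 and 138 CPM in WT and at 72.0, 83.6 and 134 CPM in KO libraries (log2 fold change -0.33, standard error 0.17, adjusted p = 0.369). *Pla2g4a*, the widely expressed enzyme that releases arachidonic acid, differed by 0.05 on the log2 scale (standard error 0.05, adjusted p = 0.725).

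The total counts lay between 46393919 and 72562322 in the WT and between 42726350 and 78102858 in the KO libraries. Keratinocyte identity genes stood at a summed level of 40700 to 42500 CPM in WT and 41000 to 42600 CPM in KO libraries, and 0 of 10 passed the test. Of 17 immune markers, 14 were under 1 CPM in every library with cytokines, as were 7 of 14 fibroblast and 5 of 8 endothelial markers. Melanocyte markers were present in every library, and their values stand beside the results below. In the differentiation and proliferation genes, 2 libraries stood apart from their groups. In list means, WT replicate 1 lay within the KO range for cornified envelope genes and above it for mitosis and DNA replication genes. KO replicate 8 lay nearest to the other WT libraries. In *Mki67*, a proliferation marker, the untreated cells of the WT replicate 1 mouse were likewise at 130 CPM against 44.5 to 63.8 CPM in the other 4 WT mice and 49.1 to 125 CPM in KO mice. No value used here checks the genotype of a library, so the label of WT replicate 1 could not be checked from these values. The paper reports its own check of the deletion in cytokine-treated WT and KO cells, by PCR and by the sequencing reads. It states that no reads of KO cells mapped to the deleted exon, and makes no separate statement on WT replicate 1. Counts of list members are given with their values when single mice were left out.

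A gene was called when its Benjamini-Hochberg adjusted p was under 0.1 and its fold change over 1.5, and list members are counted by the adjusted p alone. The p-values of the genotype comparison rest on the spread between mice, estimated over treated and untreated libraries together. The 2 libraries of a mouse were taken as independent, also in the interaction below. Of 16893 genes tested, 25 were called higher in KO cells (0.148%) and 94 lower (0.556%). By the adjusted p alone, 206 genes were higher (1.22%) and 273 lower (1.62%), and the median log2 fold change over all genes was -0.0078. These shares are the background against which the counts in each gene list are to be read. With the mouse as a random replicate block, 40 genes were called higher and 76 lower, and 78 of the main calls were among them. Of the 119 called genes, 109 had the same sign of the fold change without cytokines, 36 were also called there, and in 23 all KO libraries lay outside all WT libraries. Over the whole table, 0.639% of genes had every KO library higher than every WT library and 0.403% had every one lower. Without WT replicate 1, 558 genes were called, 114 of the 119 among them. By the adjusted p alone 6.27% of genes were then higher and 5.93% lower. Without any other single WT mouse the count fell to between 44 and 61. Without KO replicate 8, 291 genes were called, and by the adjusted p alone 438 of the 16893 were higher and 683 lower. List counts without that library are to be read against these.

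**Figure D1:**
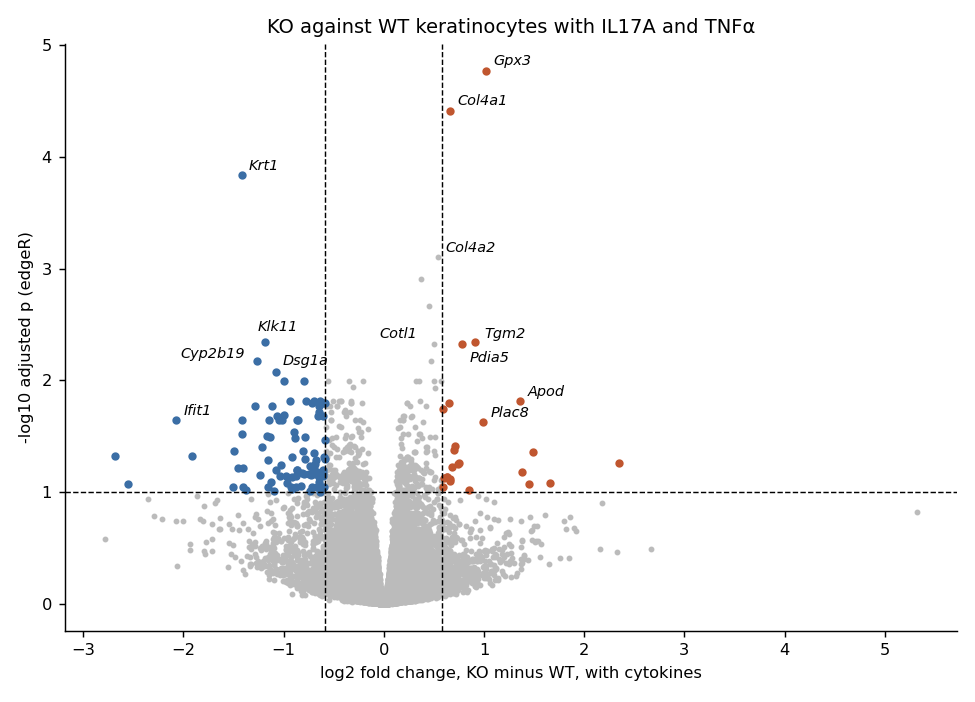
Log2 fold change between KO and WT keratinocytes with cytokines (x axis) against the -log10 of the adjusted p from edgeR (y axis) for 16893 genes, 1 point each. Dashed lines mark an adjusted p of 0.1 and a fold change of 1.5, and the 94 genes called lower (blue) outnumber the 25 called higher (orange), while *Gpx3*, *Col4a1* and *Krt1* have the smallest p-values.

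The differentiation keratins were lower in KO cells. *Krt1*, the type II keratin of the first suprabasal layer (chromosome 15 of GRCm39, 101753861 to 101759229), was at 55.7, 70.8, 107, 71.7 and 69.8 CPM in WT and at 18.1, 24.5 and 45.3 CPM in KO libraries. All 8 KO libraries lay below all WT libraries, WT replicate 1 included, and the log2 fold change was -1.42 (standard error 0.19, adjusted p = 0.000146). *Krt10*, its type I partner, was at 14.1, 19.7, 54.3, 25.8 and 29.5 CPM in WT and at 8.27, 12.2 and 23 CPM in KO libraries. Here 6 of 8 KO libraries lay below the WT range, and the log2 fold change was -1.15 (standard error 0.25, adjusted p = 0.0226). *Krt6b*, a keratin of activated epidermis, was far more abundant and fell from 1270 ± 152 CPM (SD, n = 5) to 916 ± 109 CPM (SD, n = 8), a log2 fold change of -0.47 (adjusted p = 0.0408). These were the 3 of 20 keratins that fell in all 13 libraries, and none rose. Leaving out WT replicate 1 gave 7 lower and 3 higher, leaving out KO replicate 8 gave 5 and 2, and any other single mouse 1 to 3 and 0. *Krt16* (log2 fold change -0.22, adjusted p = 0.17) and *Krt17* (0.14, adjusted p = 0.18) did not pass, although each of the 8 KO libraries exceeded every WT library for *Krt17*. The summed level of the keratins was 48300 to 50100 CPM in WT and 47500 to 50500 CPM in KO libraries. *Krt1*, *Krt10* and *Krt6b* belong, with *Hrnr*, *Lor*, *Sprr2b* and *Tgm3* described below, to 7 differentiation genes that the study picked on these libraries, all of which fell by the adjusted p (1 to 7 with 1 mouse left out). That count is not independent evidence of their direction.

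Cornified envelope and filaggrin-type genes were lower as a group. Of 35 tested, 15 fell and 0 rose, 34 had a negative fold change, and the median was -0.59. *Dsg1a*, a desmosomal cadherin of the upper layers, was at 18.2, 21.8, 30.1, 26.4 and 21.3 CPM in WT and at 6.96, 9.83 and 20.9 CPM in KO libraries. All KO libraries but replicate 8 lay below the WT range (log2 fold change -1.08, standard error 0.19, adjusted p = 0.00838). *Dsc1*, its desmocollin partner, was at 71.2, 114, 140, 129 and 129 CPM in WT and at 37.6, 49.0 and 112 CPM in KO libraries (log2 fold change -1.02, standard error 0.23, adjusted p = 0.0228). *Scel*, which encodes the envelope precursor sciellin, was at 5.57, 8.86, 8.79, 6.35 and 8.46 CPM in WT and at 2.50, 4.01 and 5.62 CPM in KO libraries (log2 fold change -0.94, standard error 0.19, adjusted p = 0.0154). In *Dsc1* and *Scel* the lowest WT value was that of replicate 1. *Lor*, the gene of loricrin and the main mass of the envelope, was at 50 CPM in WT replicate 1 and at 104 to 130 CPM in the other 4, against 33.7, 50.4 and 85.4 CPM in KO libraries (log2 fold change -0.92, standard error 0.26, adjusted p = 0.0728). *Hrnr*, the gene of the filaggrin-type protein hornerin, was at 42.3 CPM in WT replicate 1 and at 69.5 to 79.8 CPM in the other 4, against 27.6, 30.3 and 72.9 CPM in KO libraries (log2 fold change -0.87, adjusted p = 0.0638). Leaving out WT replicate 1 or KO replicate 8 gave 28 of 35. Without WT replicate 2, 3, 4 or 5 the count was 4, 4, 3 and 5, and without KO replicate 1, 2, 3, 4, 5 or 6 it was 5, 5, 5, 8, 5 and 4. Without KO replicate 7 it was 16.

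The late cornified envelope (LCE) and small proline-rich (SPRR) genes, which lie clustered on chromosome 3, moved the same way. All 36 had a negative fold change, the median was -0.65, and 4 fell by the adjusted p. *Sprr2b* was at 202, 440, 459, 437 and 434 CPM in WT and at 162, 199 and 413 CPM in KO libraries (log2 fold change -0.79, standard error 0.19, adjusted p = 0.0322). WT replicate 1 stood at less than the others of its group, inside the KO range. *Lce1k* was at 2.46, 15, 5.85, 11.3 and 11.5 CPM in WT and at 2.16, 3.62 and 7.75 CPM in KO libraries (log2 fold change -1.24, standard error 0.34, adjusted p = 0.0696). In the list, 26 genes fell without WT replicate 1, 22 without KO replicate 8 and 1 to 4 without any other single mouse. *Sprr2a1*, *Sprr2a2* and *Sprr2a3* are near-identical copies, and reads may be split or lost among them.

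Of 18 epidermal proteases and inhibitors, *Klk11* and *Tmprss4* fell and none rose, against 9 lower without WT replicate 1, 8 without KO replicate 8 and 2 to 3 without any other mouse. *Klk11*, a kallikrein protease of the upper epidermis, was at 6.24, 10.9, 7.42, 6.65 and 10.2 CPM in WT and at 2.02, 3.49 and 5.92 CPM in KO libraries, which did not overlap (log2 fold change -1.19, standard error 0.20, adjusted p = 0.0045). *Cyp2b19*, an arachidonate-oxidizing cytochrome P450 of differentiated mouse keratinocytes, was at 16.3, 40.1, 32.9, 32.8 and 39.1 CPM in WT and at 9.24, 12.6 and 21.2 CPM in KO libraries (log2 fold change -1.27, standard error 0.23, adjusted p = 0.00675). Of 17 clade B serpins, the intracellular protease inhibitors of stratified epithelia, 7 fell and none rose, with a median of -0.46. Leaving out WT replicate 1 gave 9 lower and 1 higher, KO replicate 8 gave 9 lower, WT replicate 3 gave 1, and any other mouse 3 to 8. *Serpinb12* was at 5.14, 10.4, 16.0, 8.71 and 10 CPM in WT and at 1.47, 3.14 and 8.95 CPM in KO libraries (log2 fold change -1.42, standard error 0.31, adjusted p = 0.0228). *Serpinb1a*, an inhibitor of neutrophil proteases, was at 18.5, 16.1, 23, 14.3 and 13.4 CPM in WT and at 7.75, 10.1 and 11.3 CPM in KO libraries, without overlap (log2 fold change -0.80, standard error 0.15, adjusted p = 0.0101). *Serpinb3a* also fell, but it shares reads with near copies in its cluster. Of 29 transcription factors of differentiation 2 fell and none rose, while 10 fell without WT replicate 1, 7 fell and 1 rose without KO replicate 8, and 1 to 2 fell without any other mouse. For *Maf*, a factor of the terminal program (log2 fold change -0.39, adjusted p = 0.0182), all KO libraries (14.8 to 17.9 CPM) lay below all WT libraries (19.0 to 26.5 CPM). *Egr2*, an early growth response factor, was at 0.960 CPM in WT replicate 1 and at 3.06 to 6.14 CPM in the other 4, against 0.692, 1.59 and 2.29 CPM in KO libraries (log2 fold change -1.22, standard error 0.30, adjusted p = 0.0391). Chosen after their values were seen, 4 of 6 tested *Skint* genes, which encode butyrophilin-like proteins of epidermis and thymus and resemble each other in sequence, were lower in KO cells (*Skint1*, log2 fold change -1.12, adjusted p = 0.0171).

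**Figure D2:**
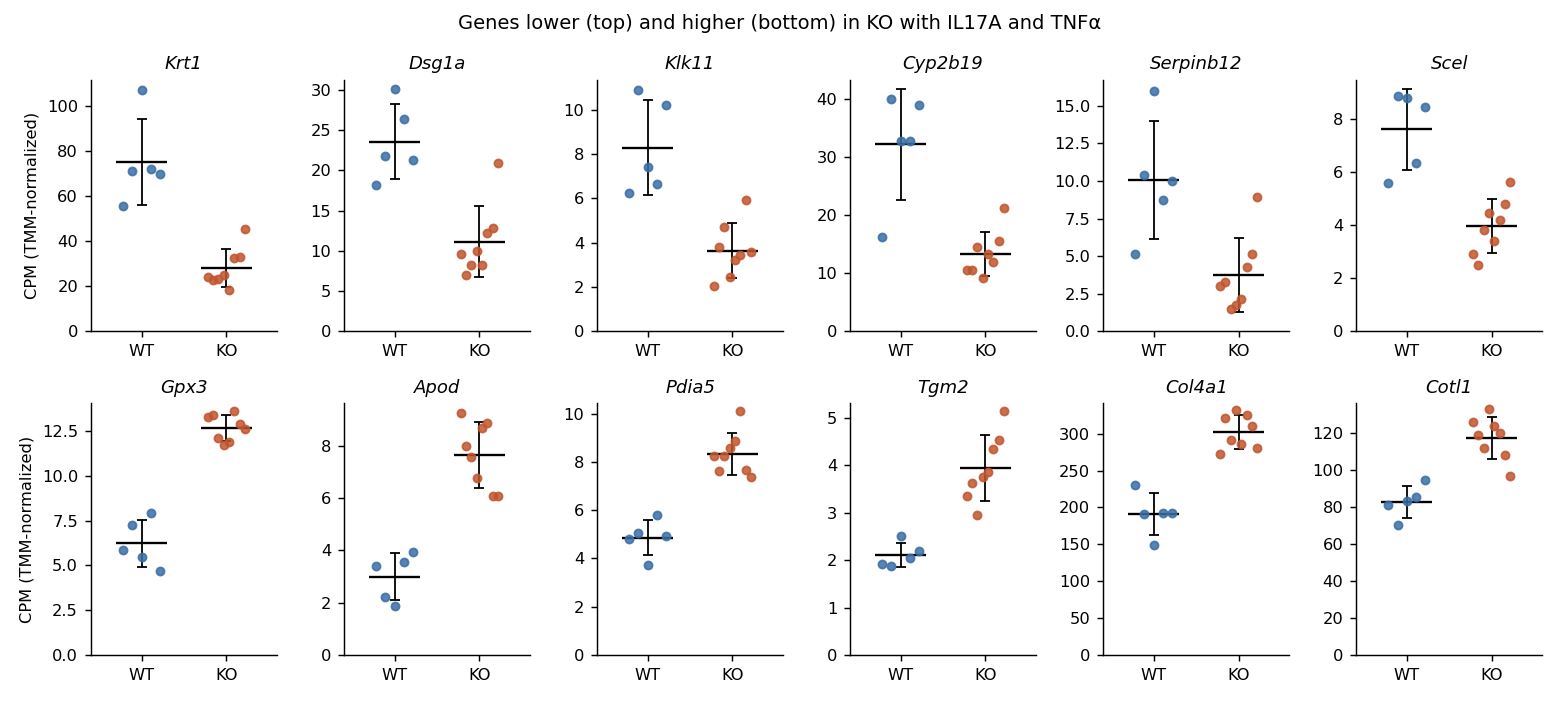
CPM of 6 genes lower in KO (top row) and 6 genes higher in KO (bottom row) in each of 5 WT and 8 KO libraries with cytokines, with the mean (line) and SD (bars). The groups do not overlap for *Krt1*, *Klk11* and the 6 genes of the bottom row.

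Promoters are shown for members that fell together and hold a motif of a factor class known in epidermal or interferon gene regulation. The AP-1-type core TGANTCA, which reads the same on both strands, was searched in the 300 bases around the start (250 before, 50 after) in RefSeq promoters of build GRCm38.p6. Of the 22 cornified envelope and clade B serpin genes that fell, 16 had an entry, and 9 of their 17 promoters held the motif. Of the 30 other members, 26 had an entry, and 13 of 32 promoters held it, against 7.81% of all 32851 promoters. The interferon-type motif, GAAA and a second GAAA set apart by any 2 bases, searched on both strands, was in 3 of 8 promoters of the interferon response genes that fell, in 14 of 22 of the other members of that list, and in 3.44% of all promoters. The 120 bases before the start, with the motif in capitals and positions from an exact match to GRCm39, are for *Lor* chr3:91990450-91990569 (minus strand), *Scel* chr14:103750657-103750776 (plus), *Flg2* chr3:93104460-93104579 (plus), *Serpinb7* chr1:107350299-107350418 (plus), *Isg15* chr4:156285276-156285395 (minus) and *Ifit1* chr19:34618169-34618288 (plus).
*Lor*: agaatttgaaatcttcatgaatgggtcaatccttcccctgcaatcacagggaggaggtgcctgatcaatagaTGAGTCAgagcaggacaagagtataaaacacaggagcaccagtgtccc
*Scel*: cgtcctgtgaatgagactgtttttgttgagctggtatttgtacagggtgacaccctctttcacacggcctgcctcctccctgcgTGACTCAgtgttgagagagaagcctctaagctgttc
*Flg2*: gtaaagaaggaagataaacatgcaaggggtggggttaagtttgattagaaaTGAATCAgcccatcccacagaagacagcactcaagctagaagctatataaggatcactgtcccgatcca
*Serpinb7*: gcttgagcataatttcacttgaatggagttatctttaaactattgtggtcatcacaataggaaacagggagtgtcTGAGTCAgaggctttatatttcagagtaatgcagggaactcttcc
*Isg15*: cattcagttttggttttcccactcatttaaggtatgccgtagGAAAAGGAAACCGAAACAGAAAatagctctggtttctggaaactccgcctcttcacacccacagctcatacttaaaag
*Ifit1*: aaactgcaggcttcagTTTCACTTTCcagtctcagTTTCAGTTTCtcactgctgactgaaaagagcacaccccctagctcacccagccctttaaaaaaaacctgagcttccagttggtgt
In *Isg15* the capitals cover 3 overlapping matches, and in *Ifit1* the motif stands on the opposite strand.

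Lipid genes of the barrier fell in smaller number. Of 66 lipid hydrolases, 6 fell and 0 rose, with a median of -0.18. *Mgll*, the monoacylglycerol lipase, was at 17.4, 28.5, 25.4, 27.3 and 28.1 CPM in WT and at 14.6, 17.6 and 21.2 CPM in KO libraries (log2 fold change -0.53, standard error 0.11, adjusted p = 0.019). Apart from WT replicate 1, all WT libraries lay above all KO libraries. *Lipm*, a lipase of the granular layer, was at 41.6, 68.3, 69.6, 71.2 and 76.2 CPM in WT and at 30.8, 38.2 and 61.5 CPM in KO libraries (log2 fold change -0.68, standard error 0.17, adjusted p = 0.0511). *Acer1*, the alkaline ceramidase of differentiating keratinocytes, was at 10.5, 15.7, 17.8, 17.7 and 16.7 CPM in WT and at 6.75, 8.44 and 16.7 CPM in KO libraries (log2 fold change -0.73, adjusted p = 0.0696). *Faah*, which hydrolyses fatty acid amides, fell at a low level, from 1.38 ± 0.581 CPM (SD, n = 5) to 0.671 ± 0.229 CPM (SD, n = 8; log2 fold change -1.03, adjusted p = 0.057). *Smpdl3a* (log2 fold change -0.53) and *Plbd1* (-0.48) were the remaining members that fell. Of these 6, *Acer1*, *Faah*, *Lipm* and *Mgll* are among 6 lipid genes that the study picked on these libraries, so they are not independent evidence. *Abhd5* (log2 fold change -0.23, adjusted p = 0.133) and *Pla2g2d* (-0.72, adjusted p = 0.15) did not pass. With WT replicate 1 left out, 21 of the 66 fell and 1 rose. With KO replicate 8 left out 14 fell, and with any other mouse left out 1 to 6 fell. In untreated cells 14 of the 66 fell and 1 rose (median -0.18), where 6.06% of all genes were lower.

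In ceramide and barrier lipid synthesis, 1 of 29 genes fell and 1 rose. The counts were 12 lower and 2 higher without WT replicate 1, 10 and 1 without KO replicate 8, and 0 to 1 in each direction without any other mouse. *Sptlc3*, a serine palmitoyltransferase subunit, was at 7.56, 11.2, 13, 11.3 and 13 CPM in WT and at 5.24, 6.28 and 10.8 CPM in KO libraries (log2 fold change -0.70, adjusted p = 0.0604). *Elovl6*, which elongates saturated fatty acids, was at 28.6, 17.5, 14.4, 14.8 and 10.6 CPM in WT and at 19.1, 25.7 and 30.8 CPM in KO libraries (log2 fold change 0.54, standard error 0.16, adjusted p = 0.0934). WT replicate 1 again lay inside the KO range in both genes. Of 24 cholesterol genes, 18 had a positive fold change, and 1 rose and none fell by the adjusted p (median 0.06; 5 rose without WT replicate 1). Of 20 eicosanoid enzymes and receptors none passed in either direction, and 3 fell without WT replicate 1 and 2 without KO replicate 8. Phospholipid remodelling showed small differences. Of 21 genes in the phospholipid acyltransferase list, 1 rose and 2 fell. With 1 mouse left out, 0 to 3 rose and 0 to 2 fell, and none passed without WT replicate 2, WT replicate 3 or KO replicate 6. *Lpcat1*, which reacylates lysophosphatidylcholine, was at 19.2, 18.0, 18.9, 15.7 and 21.5 CPM in WT and at 22.4, 25.2 and 28.5 CPM in KO libraries, all above WT (log2 fold change 0.42, standard error 0.11, adjusted p = 0.0611). *Tafazzin*, a cardiolipin remodelling transacylase, was lower in all KO libraries (28.3 to 34.6 CPM) than in all WT libraries (35.7 to 39.9 CPM; log2 fold change -0.26, adjusted p = 0.0461). *Cept1*, a choline and ethanolamine phosphotransferase, was the other of 21 acyltransferase-list genes that fell (-0.23, adjusted p = 0.0696).

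**Figure D3:**
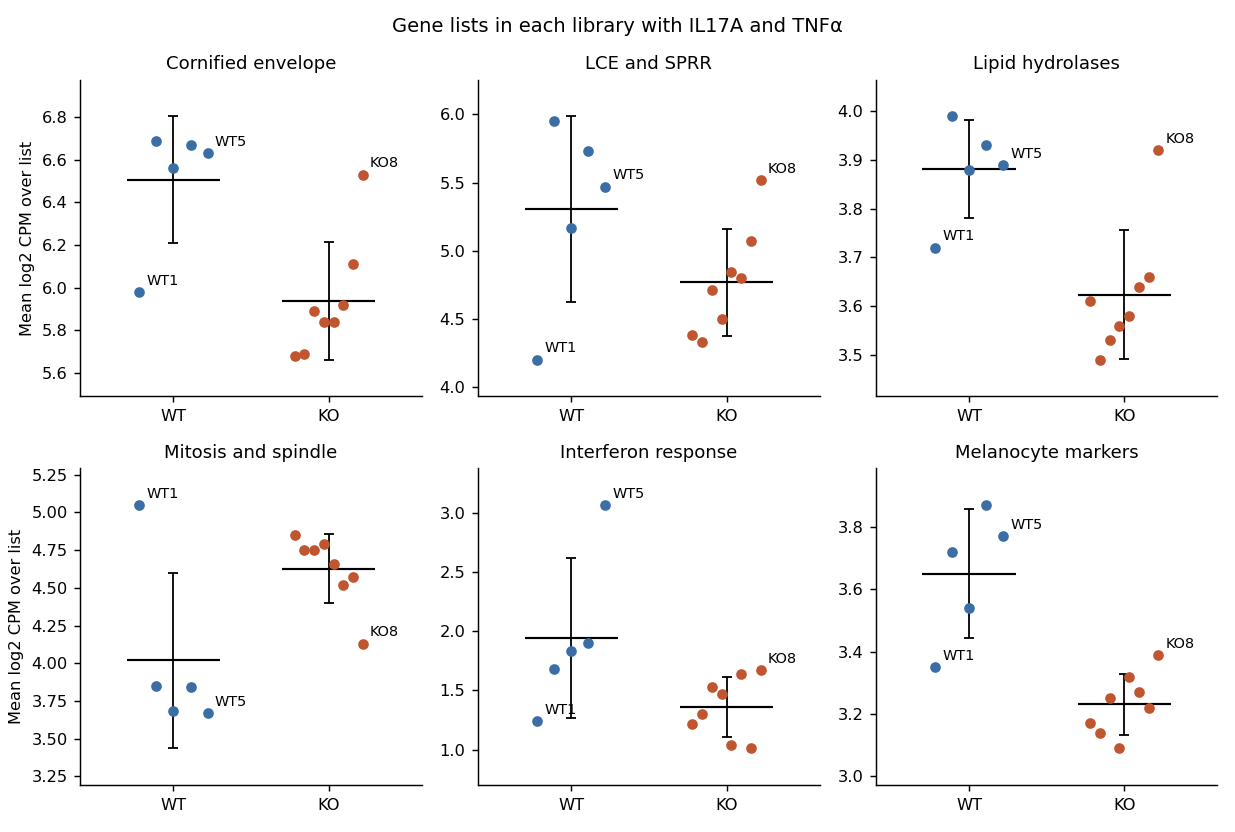
Mean log2 CPM over the tested members of 6 gene lists in each WT (blue) and KO (orange) library with cytokines, with the group mean (line) and SD (bars). WT replicate 1 (WT1) lies within or beyond the KO range in all 6 lists. KO replicate 8 (KO8) lies nearest to WT in the mitosis list, and WT replicate 5 (WT5) is highest in the interferon response.

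Cell division genes leaned the other way, and no mitosis gene passed the test in all 13 libraries. All 61 mitosis and spindle genes had a positive fold change, with a median of 0.53, and the smallest adjusted p was that of *Tpx2*, a spindle assembly factor (log2 fold change 0.58, standard error 0.20, adjusted p = 0.149). Averaged over the list, the log2 CPM was 5.05 in WT replicate 1 and 3.85, 3.68, 3.84 and 3.67 in WT replicates 2 to 5. In KO libraries it was 4.13 in replicate 8 and between 4.52 and 4.85 in the other 7. WT replicate 1 was thus above every KO library and the other 4 WT libraries were below every KO library. *Mki67* and *Top2a*, proliferation markers named after their values were seen, were at 148 and 190 CPM in WT replicate 1. Without WT replicate 1, 60 of 61 mitosis genes rose with a median of 0.91, and 31 of 46 DNA replication genes rose with a median of 0.49. With all libraries, *Cdc6*, a replication licensing factor, was the 1 of 46 that rose (log2 fold change 0.48, standard error 0.15, adjusted p = 0.0934), and the median was 0.30. Leaving out KO replicate 8 gave 8 higher DNA replication genes and 2 higher mitosis genes, with 438 of all 16893 genes then higher. *E2f7*, an E2F factor of the cell cycle, was at 15.1, 7.66, 7.64, 7.76 and 10.7 CPM in WT and at 9.96, 16.9 and 19.7 CPM in KO libraries (log2 fold change 0.74, standard error 0.19, adjusted p = 0.0564). None of the 22 p53 targets and cell cycle inhibitors passed in either direction in all 13 libraries.

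WT replicate 1 did not lie among the KO libraries in every gene. In *Gpx3*, *Apod*, *Plac8*, *Tgm2*, *Pdia5*, *Col4a1* and *Krt1* it was on the WT side of all 8 KO libraries. These genes were named for a large change or a small p with WT replicate 1 counted as WT. Its place in them is therefore not independent evidence.

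Of the genes called at a mean normalized count above 100, those with the largest rises had separate roles. *Gm36543*, *Aldh1a1*, *Ahrr*, *Emid1* and *Palm3* rose by more, with log2 fold changes of 2.35, 1.66, 1.49, 1.45 and 1.38, at lower counts. *Apod*, the lipid-binding apolipoprotein D (chromosome 16, 31115010 to 31135355), was at 3.39, 2.20, 1.87, 3.55 and 3.95 CPM in WT and at 6.07, 7.79 and 9.26 CPM in KO libraries (log2 fold change 1.36, standard error 0.27, adjusted p = 0.0154). *Gpx3*, the secreted glutathione peroxidase (chromosome 11, 54793279 to 54802424), was at 5.86, 7.23, 5.49, 7.93 and 4.69 CPM in WT and at 11.7, 12.7 and 13.6 CPM in KO libraries (log2 fold change 1.02, standard error 0.11, adjusted p = 1.7e-05). Neither gene showed any overlap between the groups. *Plac8*, a small cysteine-rich protein, was at 2.85, 3.52, 3.78, 2.82 and 2.78 CPM in WT and at 4.33, 6.07 and 8.2 CPM in KO libraries (log2 fold change 0.99, standard error 0.22, adjusted p = 0.0237). *Tgm2*, the tissue transglutaminase, was at 1.92, 1.87, 2.51, 2.04 and 2.20 CPM in WT and at 2.95, 3.81 and 5.14 CPM in KO libraries (log2 fold change 0.91, standard error 0.15, adjusted p = 0.0045). *Pdia5*, a protein disulfide isomerase, was at 4.80, 5.06, 3.74, 5.81 and 4.91 CPM in WT and at 7.35, 8.24 and 10.1 CPM in KO libraries (log2 fold change 0.78, standard error 0.13, adjusted p = 0.0047). For these 3 genes, too, every KO library was above every WT library. *Tgm2* thus moved against *Tgm3*, the epidermal transglutaminase of the envelope, which fell from 15.5 ± 2.93 CPM (SD, n = 5) to 10.3 ± 2.49 CPM (SD, n = 8; log2 fold change -0.59, adjusted p = 0.0503). *Bcat1*, the cytosolic branched-chain aminotransferase, was at 19.1, 8.88, 8.47, 9.55 and 11.8 CPM in WT and at 14.5, 19.5 and 21.9 CPM in KO libraries, with WT replicate 1 inside the KO range (log2 fold change 0.70, standard error 0.17, adjusted p = 0.0418). *Adh7*, a retinol-oxidizing dehydrogenase, rose by a log2 fold change of 0.71 (adjusted p = 0.0385). *Ptgs2os2* (0.85, adjusted p = 0.0953) is antisense to *Ptgs2*, and its reads can be told from those of *Ptgs2* only if the counting used the strand, which is not given in the sources used here.

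Among 28 antioxidant and NRF2 target genes, 3 rose (*Gpx3*, *Osgin1* and *Akr1b8*) and 2 fell. *Osgin1*, an NRF2 target, rose (log2 fold change 0.75, standard error 0.19, adjusted p = 0.0547) while *Hmox1*, the heme oxygenase, was at 171, 370, 248, 323 and 305 CPM in WT and at 160, 176 and 270 CPM in KO libraries (log2 fold change -0.57, standard error 0.15, adjusted p = 0.0634). *Mgst1* fell as well (-0.29, adjusted p = 0.0391). The median of the list was 0.05. Its mean log2 CPM was 5.15 to 5.42 in WT and 5.43 to 5.59 in KO libraries, which did not overlap by a narrow margin. The summed level did overlap, at 3850 to 4280 CPM in WT and 3940 to 4170 CPM in KO libraries. Without WT replicate 1, 11 rose and 2 fell, and any other mouse left out gave 1 to 3 higher and 0 to 4 lower.

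Genes of the basement membrane and of adhesion to it were higher in KO cells. Of 24 hemidesmosome and matrix adhesion genes, 8 rose and none fell, 22 had a positive fold change, and in 5 every KO library exceeded every WT library. *Col4a1*, a chain of the basement membrane collagen IV (chromosome 8, 11248423 to 11362826), was at 230, 191, 149, 193 and 192 CPM in WT and at 272, 301 and 332 CPM in KO libraries (log2 fold change 0.66, standard error 0.08, adjusted p = 3.89e-05). *Col4a2*, the partner chain encoded beside it, was at 149, 138, 108, 132 and 146 CPM in WT and at 176, 197 and 210 CPM in KO libraries (log2 fold change 0.54, standard error 0.08, adjusted p = 0.000789). Both were higher in every KO than in every WT library. Laminin chains of the basement membrane rose by less. *Lamb3* and *Lama3* had log2 fold changes of 0.31 and 0.26 (adjusted p = 0.0436 and 0.0728). *Itga3*, the α3 integrin subunit that binds laminins, was at 399, 285, 357, 326 and 393 CPM in WT and at 413, 458 and 471 CPM in KO libraries (log2 fold change 0.36, standard error 0.07, adjusted p = 0.0154). *Nid1* (0.63, adjusted p = 0.0728) and *Fn1* (0.46, adjusted p = 0.0947) also rose. Without 1 mouse 4 to 8 rose, the lowest count without WT replicate 4, and 1 fell without WT replicate 1. In untreated cells 16 of the 24 rose and none fell, where 7.57% of all genes were higher. The median of the list was 0.29 there and 0.12 with cytokines.

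Actin genes rose by small amounts. Of 50, 9 rose and none fell, with a median of 0.09. The count was 14 without WT replicate 1, 13 without KO replicate 8, 3 without WT replicate 3 and 4 to 10 without any other mouse. *Cotl1*, a coactosin-like actin-binding protein, was at 80.9, 70.2, 83.1, 85.3 and 94.6 CPM in WT and at 96.8, 119 and 133 CPM in KO libraries (log2 fold change 0.50, standard error 0.09, adjusted p = 0.0047). *Fscn1*, the filopodial bundler fascin, was at 178, 143, 130, 159 and 152 CPM in WT and at 176, 217 and 253 CPM in KO libraries (log2 fold change 0.51, standard error 0.12, adjusted p = 0.0322). *Cnn3* (0.19, adjusted p = 0.0228) and *Coro1c* (0.14, adjusted p = 0.0264) differed by little, yet every KO library exceeded every WT library in both. None of the 9 passed the fold change of 1.5.

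In all 13 libraries no ligand and no NF-κB gene passed the test. None of 35 chemokine and cytokine ligands passed in either direction (median -0.02), and none of 25 NF-κB pathway genes did (median -0.04). Leaving out WT replicate 1 gave 7 lower and 3 higher ligands and 2 lower and 1 higher NF-κB genes. Leaving out KO replicate 8 gave 5 lower and 3 higher ligands and 2 lower NF-κB genes. The ligand with the smallest adjusted p was *Il36g*, an IL-36 cytokine of keratinocytes (log2 fold change -0.44, standard error 0.14, adjusted p = 0.11). *Tnf* was at 31.9, 38.2, 40.0, 34.9 and 37.0 CPM in WT and at 28.2, 31.9 and 50.5 CPM in KO libraries (log2 fold change -0.03, standard error 0.14, adjusted p = 0.961). Of 20 antimicrobial and acute-phase genes 4 fell and none rose, with a median of -0.40. Without WT replicate 1 or KO replicate 8, 8 fell and 1 rose, without WT replicate 2 none passed, and without any other mouse 1 to 4 fell. *Defb1*, a β-defensin, was at 87.7, 131, 105, 101 and 89.3 CPM in WT and at 50.3, 73.2 and 88.2 CPM in KO libraries (log2 fold change -0.53, standard error 0.12, adjusted p = 0.0228). *Chil1*, a chitinase-like protein, had a log2 fold change of -0.82 (adjusted p = 0.0675). *S100a9*, a calprotectin subunit, was at 1310 CPM in WT replicate 1 and at 2210 to 2430 CPM in the other 4, against 1100, 1470 and 2360 CPM in KO libraries (log2 fold change -0.48, adjusted p = 0.0867). *Orm1*, an acute-phase protein, was the remaining member that fell (-0.50, adjusted p = 0.0934). The adjusted p of *S100a9* was over 0.1 in 10 of the 13 fits that left out 1 mouse.

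Interferon response genes were lower in KO cells, with 1 WT library far above the rest. Of 33 genes, 10 fell and 0 rose, 31 had a negative fold change, and the median was -0.66. *Ifit1*, an interferon-induced RNA-binding protein, was at 0.819, 0.817, 1.87, 2.17 and 7.87 CPM in WT and at 0.215, 0.555 and 1.51 CPM in KO libraries (log2 fold change -2.07, standard error 0.46, adjusted p = 0.0228). *Irf7*, the amplifying factor of the type I interferon response, was at 2.27, 3.34, 5.25, 5.22 and 7.83 CPM in WT and at 1.2, 2.22 and 2.93 CPM in KO libraries (log2 fold change -1.17, standard error 0.27, adjusted p = 0.0314). In both genes WT replicate 5 was the highest. *Irf9* and *Stat2*, subunits of the factor that binds interferon response elements, fell by log2 fold changes of -0.66 (adjusted p = 0.0207) and -0.35 (adjusted p = 0.0425), and for *Stat2* all KO libraries (17.9 to 21.7 CPM) lay below all WT libraries (22.9 to 32.6 CPM). The mean log2 CPM of the list was 3.07 in WT replicate 5, 1.24 to 1.90 in the other 4 WT libraries and 1.01 to 1.67 in KO libraries. Without WT replicate 5, 1 of the 33 fell, and the median was -0.25. The count was 17 without WT replicate 1, 15 without KO replicate 8 and 4 to 8 without any other mouse. Of 16 MHC class I genes, *B2m* alone passed (log2 fold change -0.28, adjusted p = 0.0638).

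Melanocytes are pigment cells that come along in neonatal epidermal isolates. In bulk RNA, fewer cells of a type and less RNA per cell cannot be told apart. Of 12 melanocyte markers, 7 were lower in KO libraries and none higher, with a median of -0.45. The count was 9 without WT replicate 1, 8 without KO replicate 8, 3 without WT replicate 5 and 4 to 6 without any other mouse. Their summed level was 361, 515, 473, 503 and 501 CPM in WT and 334, 360 and 436 CPM in KO libraries, with the lowest WT value in replicate 1 and the highest KO value in replicate 8. *Pmel*, a melanosome matrix protein, was at 82.8, 139, 129, 131 and 131 CPM in WT and at 67.8, 79.4 and 112 CPM in KO libraries (log2 fold change -0.57, standard error 0.12, adjusted p = 0.0168). *Dct*, a melanin synthesis enzyme, had a log2 fold change of -0.47 (adjusted p = 0.0168) and *Trpm1* of -1 (adjusted p = 0.0101). *Sox10* (0.09, adjusted p = 0.779) and *Tyrp1* (-0.14, adjusted p = 0.397) did not pass. The long noncoding nuclear RNA *Neat1* was also lower, at 404, 609, 772, 700 and 703 CPM in WT and at 376, 432 and 494 CPM in KO libraries (log2 fold change -0.55, adjusted p = 0.0342). With cytokines, the melanocyte and cornified envelope lists were both lowest in replicate 1 within WT and highest in replicate 8 within KO. Without cytokines none of the 12 melanocyte markers passed (median -0.06). Of 35 cornified envelope genes 8 fell and 1 rose there (median -0.30). The part of the melanocyte markers in the differentiation results was not tested.

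**Figure D4:**
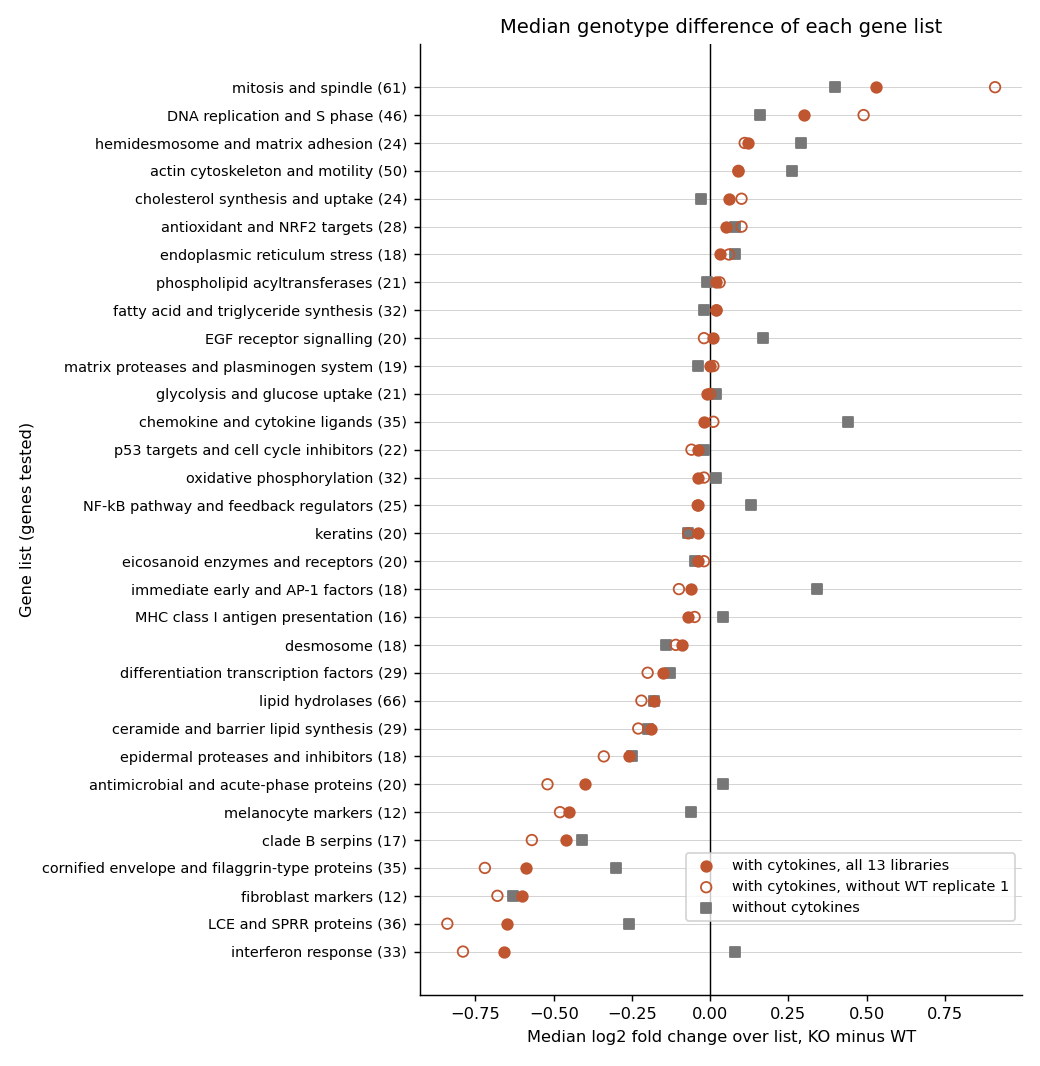
Median log2 fold change between KO and WT over each gene list with at least 12 genes tested, with cytokines in all 13 libraries (filled circles), with cytokines without WT replicate 1 (open circles) and without cytokines (grey squares). The interferon response (-0.66) and the LCE and SPRR list (-0.65) lie lowest with cytokines and mitosis (0.53) highest, and the ligand list lies near 0 with cytokines and at 0.44 without.

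Near the deleted gene, 42 other genes within 1 Mb of *Pla2g4d* were tested with cytokines. Of these 3 fell and 0 rose, and 30 had a negative fold change. *Sptbn5*, a spectrin, was at 5.18, 6.71, 8.21, 8.86 and 6.89 CPM in WT and at 3.81, 4.57 and 5.82 CPM in KO libraries (chromosome 2, 119871974 to 119916159; log2 fold change -0.59, standard error 0.14, adjusted p = 0.0344). *Tgm5*, a transglutaminase of the envelope (chromosome 2, 120876592 to 120916322; -0.65, adjusted p = 0.0806), and *Rhov* (chromosome 2, 119098963 to 119108508; -0.52, adjusted p = 0.0682) also fell. When WT replicate 1 was left out, 6 fell and 3 rose.

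Whether the genotype difference itself differed with and without cytokines was tested as an interaction, the log2 fold change with cytokines minus that without. It called 37 genes, 6 with a positive and 31 with a negative value, and 80 with the mouse as a fixed replicate block. By the adjusted p alone 0.201% of genes had a positive and 0.781% a negative value. Of the 31, 28 were higher in KO than in WT cells without cytokines. That difference enters the interaction with a minus sign, so the choice of these genes favours this direction. Without cytokines, 7.57% of genes were higher and 6.06% lower in KO by the adjusted p. *Phlda1* averaged 66.6 CPM in WT and 125 CPM in KO without cytokines, and 251 and 256 CPM with them (interaction -0.88, adjusted p = 0.00184). *Tnfaip3*, the NF-κB feedback inhibitor A20, averaged 32.8 and 49.0 CPM without and 117 and 111 CPM with cytokines (interaction -0.64, adjusted p = 0.00201). *Acta2*, a smooth muscle actin, averaged 313 and 541 CPM without and 484 and 538 CPM with cytokines (interaction -0.64, adjusted p = 0.00251). Of the ligand list, 10 genes rose and 2 fell in KO without cytokines and 5 had a negative interaction. Of the 50 actin genes 42 rose without cytokines and 17 had a negative interaction, among them *Cnn3* (-0.25, adjusted p = 0.048).

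*Gpx3* ran the other way. It averaged 4.75 CPM in WT and 4.99 CPM in KO without cytokines, and 6.24 and 12.7 CPM with them (interaction 0.96, adjusted p = 0.00251). *Irf7* averaged 1.31 CPM in WT and 1.84 CPM in KO without cytokines, against 4.78 and 2.13 CPM with them (interaction -1.65, adjusted p = 0.0559), and WT replicate 5 was the highest library. In the cornified envelope list 8 of 35 genes fell and 1 rose without cytokines (median -0.30), and none had an interaction under an adjusted p of 0.1. The same held for the mitosis list, where 2 of 61 rose without cytokines (median 0.40). *Krt1* averaged 1520 CPM in WT and 902 CPM in KO without cytokines, so that its genotype difference stood in both conditions (log2 fold change -0.75, adjusted p = 0.00776 without cytokines) and its interaction of -0.67 did not pass (adjusted p = 0.389). The log2 fold change of *Col4a1* was 0.66 with and 0.63 without cytokines, with an interaction of 0.04 (standard error 0.11, adjusted p = 0.972).

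**Figure D5:**
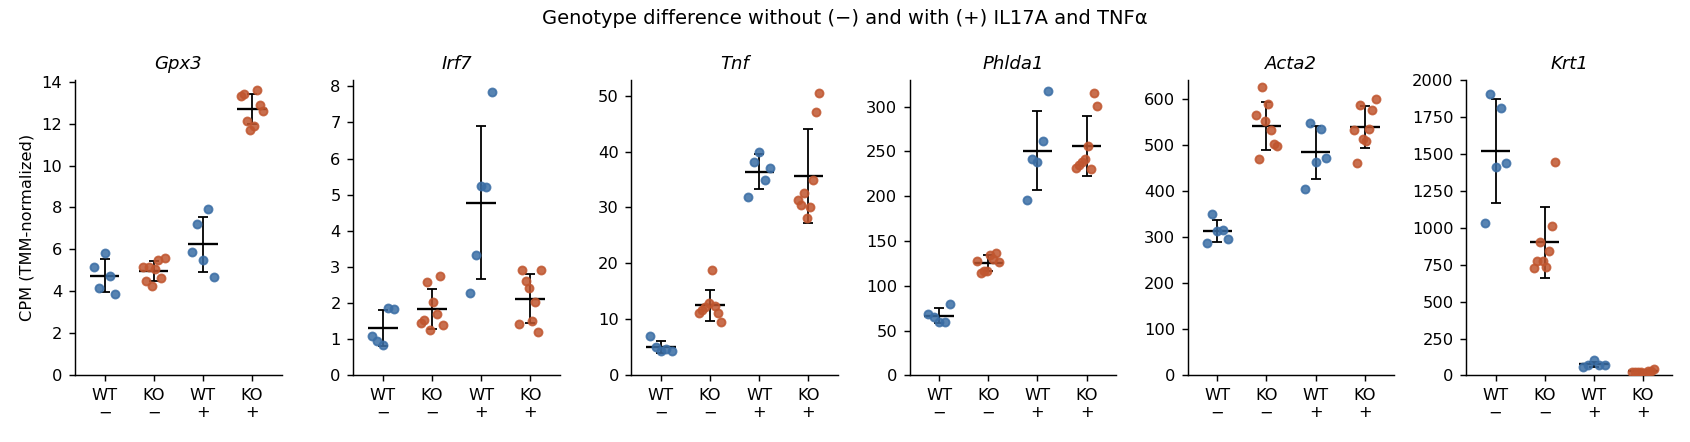
CPM of 6 genes in every WT (blue) and KO (orange) library without (−) and with (+) cytokines, with mean (line) and SD (bars), 5 WT and 8 KO libraries per condition. *Gpx3* separates the genotypes with cytokines alone, *Tnf* and *Phlda1* without them, and *Krt1*, which is far lower with cytokines, is lower in KO in both conditions.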

How the data were processed

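Poly(A) RNA was sequenced from 26 libraries of 13 mice (5 WT and 8 KO), each mouse giving 1 untreated and 1 cytokine-treated library. The authors deposited raw counts per gene symbol, made with STAR 2.7.10b and featureCounts 2.0.6 on mm39 with GENCODE annotation, and a table of log2 values that the authors computed with DESeq2. The strand setting of the counting is not given in the sources used here. Tests on the counts used the quasi-likelihood method of edgeR 4.0.16 (R 4.3.3) after TMM scaling, in a model of the 4 groups over all 26 libraries. Genes with a mean normalized count over 10 were kept (16893 of 56738 symbols). For a call, the p adjusted after Benjamini-Hochberg had to be below 0.1 and the fold above 1.5. The standard error is the log2 fold change divided by the root of its F value. DESeq2 1.42.0 and limma 3.58.1 on the deposited log2 values served as alternatives. The method was tested on simulated counts. All members and gene lists were chosen with earlier results of these data known. The text names the 12 largest rises and 12 largest falls called at a mean normalized count above 100, the 5 calls of smallest p in each direction, the cPLA2 family, the genes the study named, the 4 members of smallest adjusted p under 0.1 in each list (8 in long lists), 6 interaction genes and the genes that passed within 1 Mb of *Pla2g4d*, each as far as space allowed. Outside this rule, and chosen after their values were seen, are *Krt16*, *Krt17*, *Tpx2*, *Mki67*, *Top2a*, *Il36g*, *Akr1b8*, *Gm36543*, *Aldh1a1*, *Ahrr*, *Emid1*, *Palm3*, *Sox10*, *Tyrp1*, *Lamb3*, *Lama3*, *Nid1*, *Fn1*, the *Skint* genes and the promoters shown. Replicate numbers name different mice in WT and KO. The 2 libraries of each mouse are paired by the animal, with correlations of their deviations of 0.00 to 0.25 (median 0.11). The smallest chi-square per degree of freedom between libraries of a group was 7.22, more than sampling noise between every pair. Some genes that met the naming rule are not reported here.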

Additional observations from a re-analysis of the deposited data

Results flagged for a closer look

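In 97 genes and the gene lists, single libraries were compared with the rest of their group by Dixon's gap test. Of 194 gene-by-group checks 30 passed, where chance gives about 9.7 (1 in 20). That figure is a rough guide, because many of the genes move together and *Mki67* and *Top2a* were added after their values were seen. WT replicate 1 accounted for 17, KO replicate 8 for 9 and other libraries for 4. What sets these libraries apart was not tested, and the genotype label of WT replicate 1 could not be checked from the values used here. The paper reports its own check of the deletion in the cytokine-treated cells, as described above.

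WT replicate 1 was far below the other 4 WT libraries for *Cyp2b19* (16.3 CPM), *Hrnr* (42.3), *Lor* (50), *Sprr2b* (202), *Acer1* (10.5), *Lipm* (41.6), *Mgll* (17.4), *Calml3* (2.29), *Sprr2a3* (112), *Sptlc3* (7.56), *S100a9* (1310), *Dsg1b* (98.4), *Dct* (81.5), *Pmel* (82.8) and *Tgm5* (13.1). It was far above them for *Mki67* (148) and *Top2a* (190). The mean log2 CPM of WT replicate 1 stood apart in the cornified envelope (5.98), mitosis (5.05) and DNA replication (4.34) lists.

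KO replicate 8 was far above the other 7 KO libraries for *Pla2g4e* (134 CPM), *Krt6b* (1170), *Hrnr* (72.9), *Abhd5* (97.6), *Acer1* (16.7), *Tmprss4* (108), *Serpinb3a* (36.6) and *Pstpip2* (35.8), and below them for *E2f7* (9.96). Its mean log2 CPM stood apart in the mitosis (4.13) and lipid hydrolase (3.92) lists. Among other libraries, *Ptgs2os2* was high in KO replicate 5 (4.13 CPM), *Timp3* was low in KO replicate 4 (223 CPM), and *Dgat1* was at 31.1 and *2610528A11Rik* at 0.0258 CPM in KO replicate 7.

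The genotype difference itself differed with and without cytokines, by the interaction term of edgeR, for *Gpx3* (0.96 on the log2 scale), *Irf7* (-1.65), *Cnn3* (-0.25), *Phlda1* (-0.88), *Tnfaip3* (-0.64), *Tnf* (-1.32), *Acta2* (-0.64) and *Pstpip2* (-0.73).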

How the results depend on the processing

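The counts of calls depended on single mice more than on the tool. The 119 called genes (25 higher, 94 lower) became 180 (60 higher) with only the cytokine libraries, 54 (11 and 43) at an adjusted p under 0.05, 479 (206 and 273) without a fold limit and 0 (0 and 0) when edgeR tested against the fold limit itself (2533 genes were below 0.05 in the usual test before adjustment). DESeq2 gave 38 higher and shared 117 of the 119 calls, and the mouse as a replicate block gave 40 higher and shared 78. A replicate block by number, which pairs different mice, gave 504 (215 and 289). Leaving out 1 mouse gave 44 to 558 in all, 10 to 259 higher and 32 to 299 lower. Leaving out both WT replicate 1 and KO replicate 8, chosen after seeing the data, gave 712 (302 and 410). The 37 interaction calls became 60 with DESeq2, 80 with the mouse as a replicate block, 21 at 0.05, 166 without a fold limit, 0 against the fold limit, 18 to 92 without 1 mouse and 135 without both. The 15 lower cornified envelope genes became 29 with the block by number, 30 without both, 4 at 0.05 and 3 to 28 without 1 mouse. The 0 mitosis genes became 1 with limma, 5 with only the cytokine libraries, 5 with the mouse block, 57 with the block by number, 60 without both and 0 to 60 without 1 mouse. The 6 lower lipid hydrolases became 10 with only the cytokine libraries, 22 with the block by number, 26 without both, 3 at 0.05 and 1 to 21 without 1 mouse. Same-numbered WT and KO libraries correlated at -0.05 to 0.08, and 2 of 5 correlated best with their own number. The cause of these differences was not tested.

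Among the 98 genes of the naming rule none that passed the test changed direction under the alternatives run. *Phlda1* (0.03 with cytokines, -0.04 without WT replicate 1) and *Tnf* (-0.03, up to 0.02 with 1 mouse left out), which did not pass, changed sign. With a mouse left out 919 of 1274 values kept their side of the threshold, and under the other settings 929 of 979. *Gm9696* is listed at 0 in every library of the deposited log2 values and has no value there.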
